A study of Mus musculus with 12 samples.

Results

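Maple syrup extract (MSX) was fed to mice on a low-fat or a high-fat diet, and the question here was whether its effect on liver gene expression depended on the diet. The measure was the interaction, the effect of MSX on the high-fat diet (MSX minus control) minus the effect of MSX on the low-fat diet, on the log2 scale. A positive interaction means that MSX minus control was higher on the high-fat diet, and a negative one that it was higher on the low-fat diet. It was computed from all 12 of 12 arrays for the 22180 genes with 1 symbol on the platform, each represented by its probe set of highest mean.

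All mice were male C57BL6, entered the experiment at 6 weeks of age and were killed at 18 weeks, after 12 weeks of free access to their diet. The 4 groups of 3 arrays, which the labels call biological replicates, were low-fat control (10% of energy from fat), low-fat MSX (the same diet with 0.5% w/w of the extract), high-fat control (45% of energy from fat) and high-fat MSX (that diet with 0.5% w/w of the extract). RNA came from whole liver tissue extracted with Trizol. The deposited values were log2 probe set levels between 0.714 and 14.1. Array medians lay between 4.68 and 4.75, and correlations between arrays between 0.973 and 0.984. All 18 measured hepatocyte markers lay above the all-gene median level of 5.11 in each group, and their mean level was 11.52 to 11.68 per array. Of the lymphocyte markers 3 of 22 lay above that median, and of the neutrophil markers 1 of 13.

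By way of background, the liver makes fatty acids and cholesterol under the control of the SREBP factors, which insulin, sugars and low sterol activate, and burns fatty acids under the control of the nuclear receptor PPARα, which fasting and fatty acids activate. Another layer is the sex bias of liver expression, which the pattern of growth hormone release sets and which gives male and female mice different cytochrome P450 profiles. Stellate cells, a minor cell type of the liver, make most of its collagen.

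No gene passed the test for the interaction at an adjusted p under 0.05 (limma with Benjamini-Hochberg adjustment over all 22180 genes, 0%), and the lowest adjusted p was 0.664. At an unadjusted p under 0.05 there were 1130 genes (5.09%), 592 with a higher and 538 with a lower extract effect on the high-fat diet, and 5% of 22180 genes are 1109. In 8 other settings of the analysis, named under the processing, the count after adjustment was 0 as well. The interaction had a median of 0.0064 over all genes, and its 5th and 95th percentiles were -0.43 and 0.42. Its median standard error was 0.22, against 0.15 for the extract effect on a single diet, since the interaction adds the errors of 4 groups. The 95% interval of the interaction lay within -1 to 1 for 19532 genes (88.1%), so that for these a difference of more than 2-fold between the extract effects lay outside the interval. For the other 2648 genes the interval reached past that bound, and the data do not show that the extract acts alike on both diets.

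On the single diets the same fit called 35 genes for the extract on the low-fat diet (0.158%, of which 14 higher and 21 lower) and 8 on the high-fat diet (0.0361%). A gene called on 1 diet only is not shown to differ between the diets, so each was followed on the other diet. The arrays of the other diet enter a call through the shared estimate of the spread, but not through the difference itself. Leaving out single arrays moved these counts to between 6 and 28 on the low-fat diet (6 without low-fat control replicate 2) and between 2 and 10 on the high-fat diet (2 without high-fat MSX replicate 2). Of the 35 calls, 5 (Acot1, Cyp4a31, Cyp51, Fabp5 and Slc27a1) held without any 1 of the 12 arrays, and 15 held in at least 6 of the 12 refits. Of the 8 calls on the high-fat diet, Plin4 and Hsd3b5 held in all 12 refits.

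The 14 genes that rose with MSX on the low-fat diet (0.0631% of all genes) had a median effect of 1.38 there and of 0.28 on the high-fat diet, where single genes ran from -0.05 to 1.23. On the high-fat diet 13 of the 14 lay above 0 too (51.6% of all genes), 12 had a smaller effect, and 6 had MSX arrays that did not overlap the control arrays, against 6.7% of all genes not overlapping in that direction. The 21 genes that fell on the low-fat diet (0.0947%) had a median of -1.03 there and of -0.49 on the high-fat diet, with a range of -2.10 to -0.02. All 21 lay below 0 on the high-fat diet too (48.4% of all genes), 19 had a smaller effect, and 16 did not overlap, against 5.51% of all genes. Choosing genes by a threshold on 1 diet favours a large effect there, so the count of smaller effects on the other diet is a description. The interaction was at an unadjusted p under 0.05 in 11 of the 14 and 12 of the 21 (5.09% of all genes), and in 0 after adjustment. The low-fat effect that chose these genes is a term of the interaction, so that nothing is read from these counts. In the other direction, the 3 genes that rose on the high-fat diet had a median of 1.11 there and 0.92 on the low-fat diet, and the 5 that fell had -1.47 there and -0.95 on the low-fat diet. All 3 lay above 0 on the low-fat diet (49.7% of all genes) and all 5 below 0 (50.3%). Of these genes, 1 of the 3 and 3 of the 5 were called on the low-fat diet too, so the 2 directions share them. The effect was smaller on the low-fat diet in 3 of the 3 and in 4 of the 5, which the choice of genes favours here too.

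Across all genes the extract effects on the 2 diets, which share no array, had a Pearson correlation of 0.21 and a Spearman correlation of 0.15, and the same sign in 55% of genes. Genes are not independent replicates, and no p is attached to these values. Among the 1130 genes at an unadjusted p under 0.05, the extract effect was above 0 on the high-fat and below 0 on the low-fat diet in 542 (48%), and the reverse in 470 (41.6%). Over all genes these shares were 23.4% and 21.6%, and opposite signs are what a large interaction favours by its construction.

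**Figure D1:**
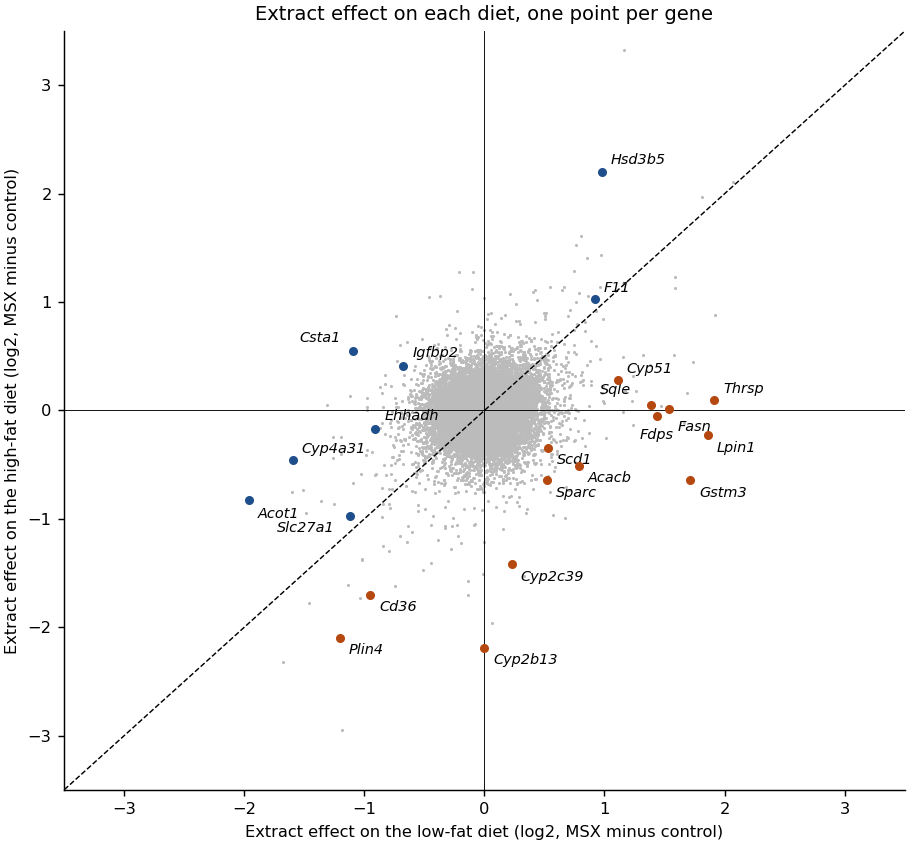
Extract effect (MSX minus control, log2) on the low-fat diet (horizontal axis) and on the high-fat diet (vertical axis), 1 point per gene for 22180 genes, with labelled genes in blue where the interaction is above 0 and in orange where it is below 0, and a dashed diagonal for equal effects. Fasn, Fdps and Sqle lie to the right with high-fat values near 0, Acot1 and Cyp4a31 lie to the left with smaller negative values on the high-fat diet, and Plin4 lies far below 0 on both diets.

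In the fatty acid synthesis genes the extract effect was positive on the low-fat diet and near 0 on the high-fat diet, by the medians of the list. Of 20 measured genes out of 21 listed, 18 had an interaction below 0 (49% of all genes), 9 of them at an unadjusted p under 0.05 (2.43% of all genes), and none had one above 0 at that level. The median over the list was -0.50 for the interaction, 0.64 for the effect of MSX on the low-fat diet and 0.08 for that on the high-fat diet. Without high-fat control replicate 1 the median interaction was -0.417, the value nearest 0 in the refits without 1 array. On the low-fat diet the MSX arrays lay wholly above the control arrays in 14 of the 20 genes (7.13% of all genes), and on the high-fat diet in 1 (6.7%). Low-fat MSX had the highest group mean in 15 of the 20 (24.1% of all genes). Lists are described by such counts and medians beside the same values over all genes, with no test of the list itself.

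Fasn encodes fatty acid synthase, which builds palmitate. Its log2 levels were 7.92, 7.66 and 8.10 in the low-fat control arrays and 9.37, 9.74 and 9.18 in the low-fat MSX arrays. In the high-fat control arrays they were 9.19, 8.42 and 8.42, and in the high-fat MSX arrays 8.65, 8.79 and 8.62. The groups did not overlap on the low-fat diet, while on the high-fat diet the MSX arrays lay inside the range of the controls. That range rested on high-fat control replicate 1, at 9.19, and without that array the interaction was -1.27. The extract effect was 1.54 on the low-fat diet (adjusted p = 0.0127, limma), a call kept in 9 of the 12 refits without 1 array and lost without low-fat control replicate 1 or 2 or low-fat MSX replicate 2, and 0.01 on the high-fat diet. The interaction was -1.53 (SE 0.29, 95% interval -2.16 to -0.90, unadjusted p = 0.000158, adjusted p = 0.664).

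Thrsp, a small protein that supports the lipogenic enzymes, had levels of 8.26, 8.88 and 7.74 in low-fat control and 9.53, 10.19 and 10.91 in low-fat MSX. On the high-fat diet it had 9.38, 8.69 and 9.01 without and 9.30, 8.81 and 9.25 with the extract. The low-fat groups were apart and the high-fat groups overlapped. Its interaction was -1.82 (SE 0.47, adjusted p = 0.753), and its call on the low-fat diet (effect 1.92, adjusted p = 0.0492) was kept in 1 of the 12 refits.

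Acacb encodes the acetyl-CoA carboxylase of the mitochondrial surface, whose product malonyl-CoA blocks entry of fatty acids for oxidation. It had 6.56, 6.93 and 6.09 in low-fat control, 6.97, 7.66 and 7.30 in low-fat MSX, 6.81, 6.60 and 6.52 in high-fat control and 6.33, 6.08 and 5.98 in high-fat MSX. MSX arrays lay above all controls on the low-fat diet and below all controls on the high-fat diet, with effects of 0.79 and -0.51 and an interaction of -1.30 (SE 0.30, adjusted p = 0.664).

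Scd1, the desaturase that makes oleate, had 12.83, 12.71 and 12.64 in low-fat control and 13.26, 13.38 and 13.14 in low-fat MSX. In high-fat control it had 13.10, 12.77 and 12.71 and in high-fat MSX 12.76, 12.44 and 12.36. The groups were apart on the low-fat diet and overlapped on the high-fat diet, and the interaction was -0.87 (SE 0.20, adjusted p = 0.665). Further members at an unadjusted p under 0.05 were Me1 (malic enzyme, a source of NADPH, interaction -1.27), Acaca (cytosolic acetyl-CoA carboxylase, -0.83), Pklr (liver pyruvate kinase, -1.08), Pgd (an NADPH-producing enzyme of the pentose phosphate path, -0.64) and Fads1 (a desaturase of polyunsaturated fatty acids, -0.54). For these 5 the low-fat effects were 1.01, 0.87, 1.26, 0.35 and 0.38, and the high-fat effects -0.26, 0.04, 0.18, -0.29 and -0.15.

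**Figure D2:**
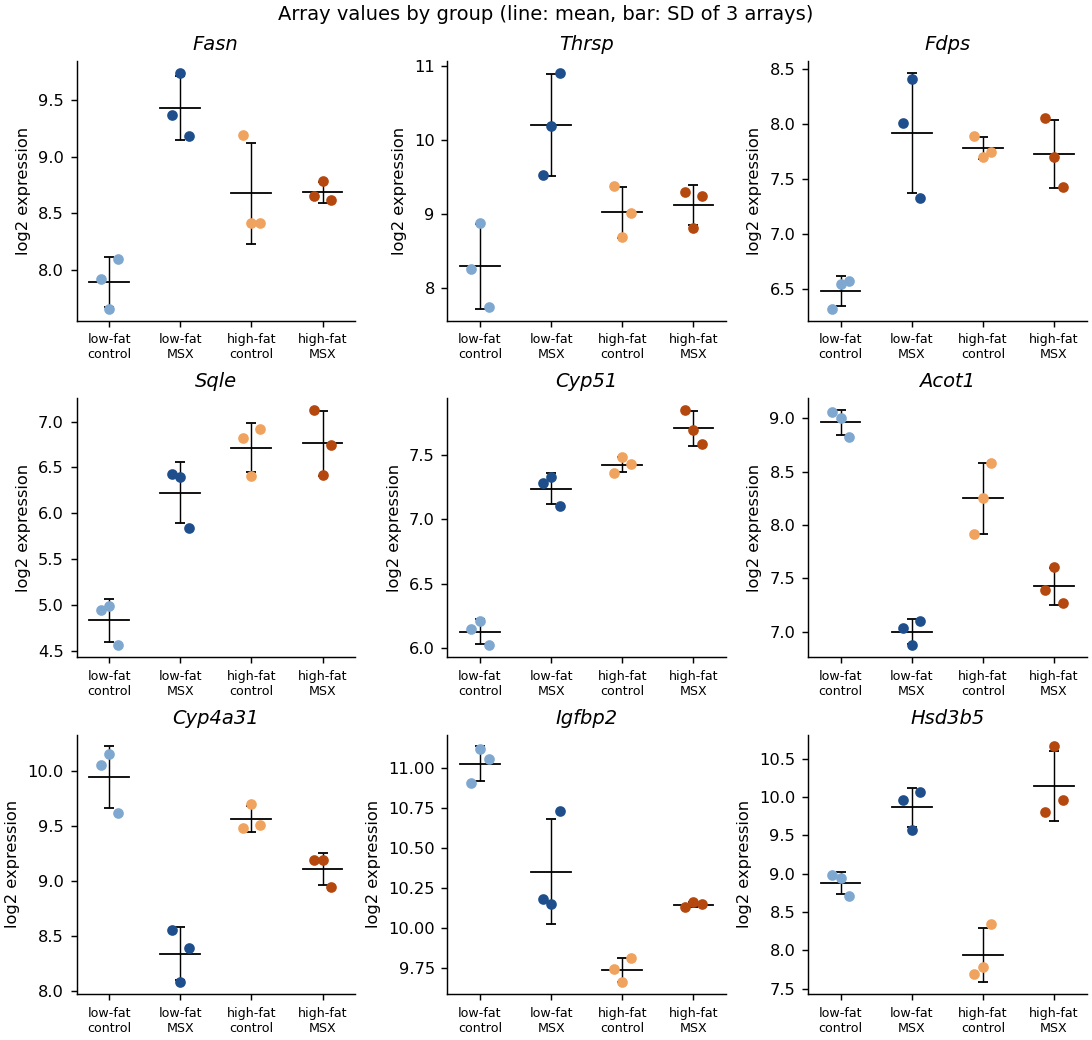
Log2 level of single genes in each of the 12 arrays, by diet and extract, with 1 point per array, a horizontal line for the group mean and an error bar of 1 SD (n = 3). Fasn stands at 7.66 to 8.10 in low-fat control and at 9.18 to 9.74 in low-fat MSX, while its high-fat groups overlap.

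In the list of cholesterol synthesis and uptake genes, 18 of 19 measured genes (of 25 listed) had an interaction below 0 (49% of all genes), 9 of them at an unadjusted p under 0.05 (2.43%) and none above 0 at that level. The medians were -0.57 for the interaction, 0.62 for the effect of MSX on the low-fat diet and 0.09 for that on the high-fat diet. On the low-fat diet 11 of 19 genes had MSX arrays wholly above the controls (7.13% of all genes), and on the high-fat diet 3 (6.7%). The low-fat control group had the lowest of the 4 group means in 17 of the 19 genes (26.5% of all genes). In the 12 arrays the median deviation of the list from each gene's overall mean was -0.41, -0.36 and -0.51 in low-fat control and 0.24, 0.31 and -0.14 in low-fat MSX. It was 0.24, 0.06 and 0.04 in high-fat control and 0.34, 0.24 and 0.16 in high-fat MSX. All 3 low-fat control arrays lay below the other 9.

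Cyp51 encodes lanosterol demethylase, a step of cholesterol synthesis after squalene. It had 6.15, 6.21 and 6.02 in low-fat control and 7.28, 7.33 and 7.10 in low-fat MSX, and 7.36, 7.48 and 7.43 in high-fat control and 7.85, 7.69 and 7.58 in high-fat MSX. MSX arrays lay above controls on both diets without overlap, and the step was larger on the low-fat diet. The effects were 1.11 (adjusted p = 0.00137, kept in all 12 refits) and 0.28 (adjusted p = 0.667), and the interaction -0.83 (SE 0.16, 95% interval -1.18 to -0.48, adjusted p = 0.664).

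Fdps, which makes farnesyl diphosphate, had 6.32, 6.54 and 6.57 in low-fat control and 8.01, 8.41 and 7.33 in low-fat MSX, and 7.89, 7.70 and 7.74 in high-fat control and 8.05, 7.70 and 7.43 in high-fat MSX. Sqle, squalene epoxidase, had 4.95, 4.99 and 4.56 in low-fat control and 6.43, 6.40 and 5.84 in low-fat MSX, and 6.82, 6.41 and 6.92 in high-fat control and 7.13, 6.42 and 6.74 in high-fat MSX. In both genes the low-fat groups were apart and the high-fat groups overlapped. The interactions were -1.49 (SE 0.32) for Fdps and -1.34 (SE 0.30) for Sqle, both with an adjusted p of 0.664. Their calls on the low-fat diet, at effects of 1.44 and 1.39, were kept in 5 and 6 of the 12 refits.

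Insig1, which holds the SREBP complex in the endoplasmic reticulum, had an interaction of -0.96, with effects of 1.38 on the low-fat and 0.42 on the high-fat diet. Nsdhl and Msmo1, which act on the sterol ring after lanosterol, had interactions of -1.07 and -0.99. Dhcr7, the last enzyme of cholesterol synthesis, had -0.57, Lss, which closes the sterol ring, -0.69, and Pmvk, a kinase of the mevalonate path, -0.64. None of these 6 had an adjusted p under 0.91. Mvd went the other way in sign with 0.31, inside an interval that holds 0.

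The promoters of Fasn, Cyp51 and Acot1, the genes of lowest interaction p in the synthesis, sterol and oxidation lists, are shown as the 250 bases before the RefSeq start on GRCm38.p6, on the strand of the gene. Capitals mark matches on either strand to CCAAT, the box bound by NF-Y, and to ATCACC, the first letters of the classical sterol regulatory element. Fasn lies at chr11:120824548-120824797 on the minus strand, Cyp51 at chr5:4104698-4104947 on the minus strand and Acot1 at chr12:84009252-84009501 on the plus strand.
Fasn: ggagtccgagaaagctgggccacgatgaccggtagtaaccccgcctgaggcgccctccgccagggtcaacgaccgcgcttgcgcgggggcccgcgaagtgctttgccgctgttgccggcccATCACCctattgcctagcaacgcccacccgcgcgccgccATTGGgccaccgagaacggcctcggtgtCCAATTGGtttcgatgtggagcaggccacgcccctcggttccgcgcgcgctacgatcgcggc
Cyp51: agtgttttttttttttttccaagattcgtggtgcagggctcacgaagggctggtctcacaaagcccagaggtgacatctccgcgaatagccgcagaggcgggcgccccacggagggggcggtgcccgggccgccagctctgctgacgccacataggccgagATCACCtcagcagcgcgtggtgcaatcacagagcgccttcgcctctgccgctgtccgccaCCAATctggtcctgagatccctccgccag
Acot1: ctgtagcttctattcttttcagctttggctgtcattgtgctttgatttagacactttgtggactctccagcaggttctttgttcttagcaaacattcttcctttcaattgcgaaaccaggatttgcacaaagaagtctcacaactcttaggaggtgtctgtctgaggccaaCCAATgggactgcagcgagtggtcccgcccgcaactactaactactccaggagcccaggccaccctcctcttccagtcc
In Fasn, ATCACC stood 129 bases before the start and CCAAT at 90, 62 and 59 bases, the last pair overlapping on opposite strands. Cyp51 held ATCACC at 89 and CCAAT at 29 bases, and Acot1 held CCAAT at 79 bases, with no match to ATCACC. The half-site of nuclear receptors, AGGTCA, was searched on both strands too and had no match in these 3 windows. CCAAT was found in 33.8% of all 32851 windows, in 13 of 24 windows of the fatty acid synthesis list (54.2%), in 15 of 18 of the cholesterol list (83.3%) and in 15 of 29 of the oxidation list (51.7%). The shares for ATCACC were 8.48%, 16.7%, 27.8% and 20.7% in the same order, and those for AGGTCA 14%, 12.5%, 27.8% and 17.2%. These are shares of windows and not of genes, since a gene can have several windows. The windows covered 18 of the 20 measured genes of the fatty acid synthesis list, 15 of 19 of the cholesterol list and 27 of 34 of the oxidation list. Sqle, Fdps, Scd1 and Cyp4a31 had no window. A match describes letters in a window and not binding of a factor.

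Fatty acid oxidation and PPARα targets went the other way. The median extract effect over the list was -0.35 on the low-fat and -0.17 on the high-fat diet, and the median interaction was 0.21. Of 34 measured genes out of 40 listed, 30 had an interaction above 0 (51% of all genes), 6 of them at an unadjusted p under 0.05 (2.67% of all genes), and none had one below 0 at that level. MSX arrays lay wholly below controls on the low-fat diet in 24 of 34 genes (6.73% of all genes) and on the high-fat diet in 15 (5.51%). Low-fat MSX had the lowest group mean in 31 of the 34 (24.6% of all genes). The count of 6 became 3 without low-fat control replicate 1, without low-fat MSX replicate 3 or without high-fat control replicate 2.

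Acot1, a cytosolic acyl-CoA thioesterase and a classical PPARα target, had 9.06, 9.0 and 8.83 in low-fat control and 7.03, 6.87 and 7.10 in low-fat MSX. On the high-fat diet it had 7.92, 8.25 and 8.58 without and 7.39, 7.61 and 7.27 with the extract. The groups were apart on both diets, with a larger step on the low-fat diet. Acot1 fell by 1.96 on the low-fat diet (adjusted p = 0.000286, kept in all 12 refits), the effect on the high-fat diet was -0.83 (adjusted p = 0.143), and the interaction was 1.14 (SE 0.23, 95% interval 0.65 to 1.62, adjusted p = 0.664).

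Cyp4a31, a fatty acid hydroxylase, had 10.05, 10.15 and 9.62 in low-fat control, 8.55, 8.08 and 8.39 in low-fat MSX, 9.48, 9.70 and 9.51 in high-fat control and 9.19, 9.19 and 8.94 in high-fat MSX. The groups were apart on both diets here too. It fell by 1.60 on the low-fat diet (adjusted p = 0.00137), against -0.46 on the high-fat diet, with an interaction of 1.14 (SE 0.23). Cyp4a genes are close copies of each other, and the array may not tell their transcripts apart fully.

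Ehhadh, the bifunctional enzyme of peroxisomal oxidation, had 11.56, 11.05 and 11.06 in low-fat control and 10.31, 10.37 and 10.26 in low-fat MSX. In high-fat control it had 10.93, 11.03 and 10.97 and in high-fat MSX 10.62, 10.83 and 10.98. The low-fat groups were apart and the high-fat groups overlapped, and the interaction was 0.74 (SE 0.21, adjusted p = 0.819). The other members at an unadjusted p under 0.05 were Acaa1b (peroxisomal thiolase, 0.36), Eci1 (an isomerase of mitochondrial oxidation, 0.36) and Cyp4a14 (another fatty acid hydroxylase, 0.85). Fgf21, a fasting hormone of the liver, had an interaction of 0.78 with a 95% interval of -0.04 to 1.59, and effects of -1.51 on the low-fat and -0.74 on the high-fat diet. Ppara itself, the receptor, had 0.02 with an interval of -0.35 to 0.38.

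**Figure D3:**
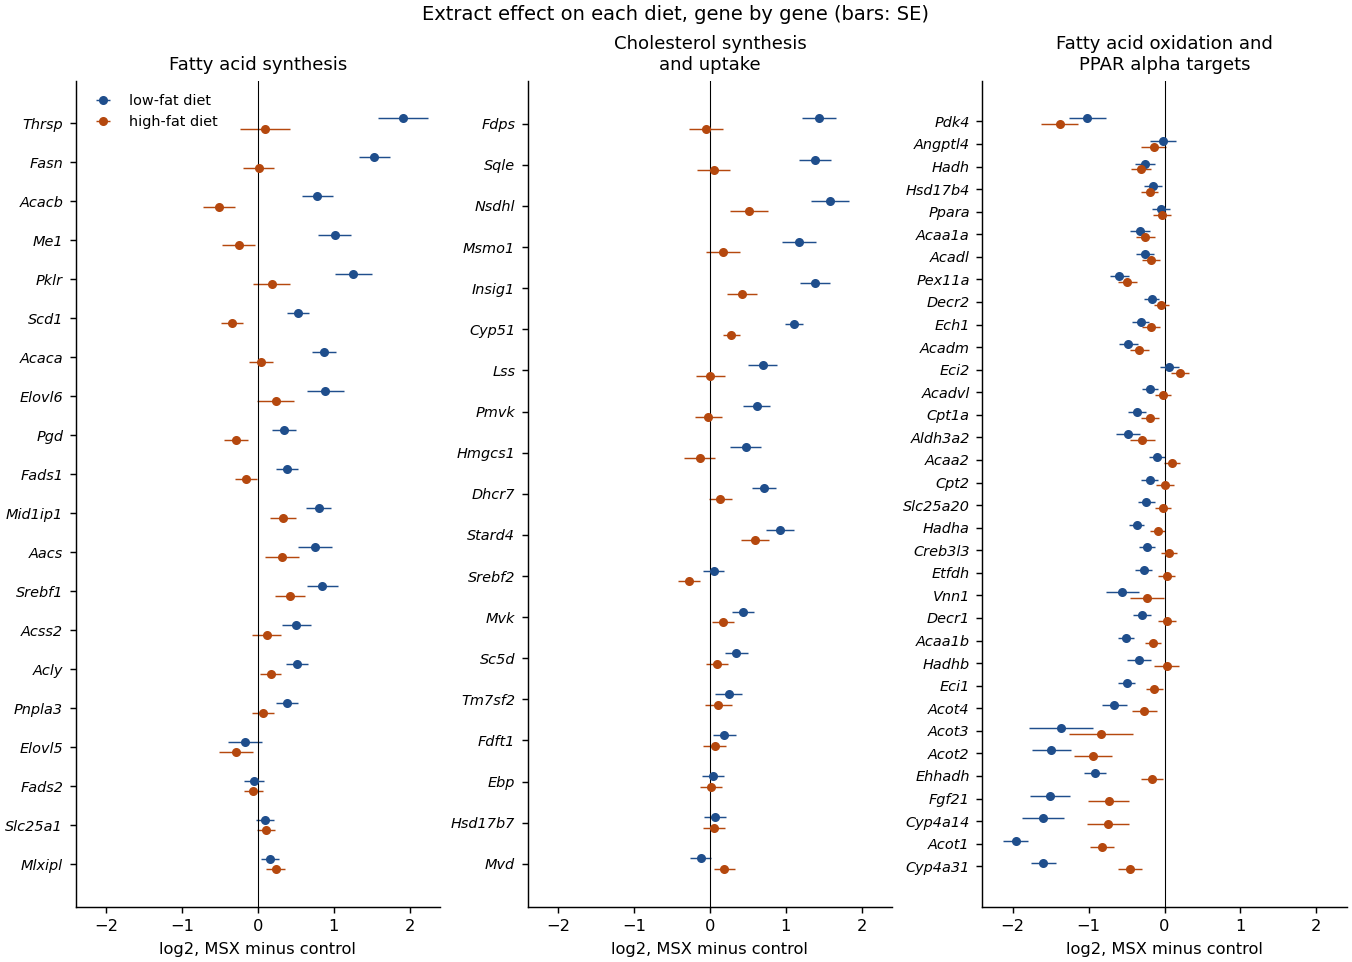
Extract effect (log2, MSX minus control) of each measured gene of the fatty acid synthesis, cholesterol and fatty acid oxidation lists, with points for the low-fat and the high-fat diet and bars for the standard error from limma. Fasn stands at 1.54 on the low-fat and 0.01 on the high-fat diet and Acot1 at -1.96 and -0.83, while no gene passed the test for the difference.

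**Figure D4:**
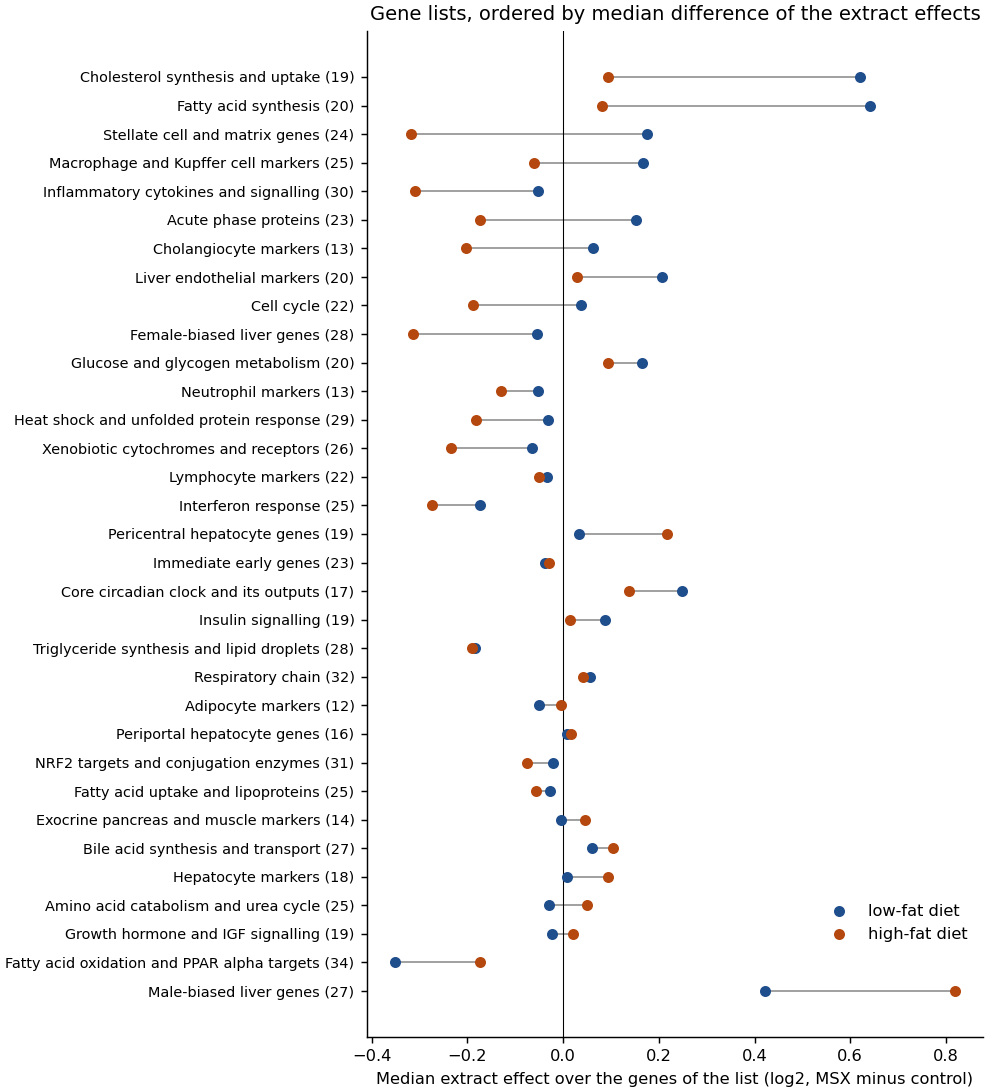
Median extract effect (log2, MSX minus control) over the genes of each list on the low-fat and on the high-fat diet, with the number of measured genes in brackets and lists ordered by their median interaction. Cholesterol and fatty acid synthesis stand at 0.62 and 0.64 on the low-fat diet and near 0 on the high-fat diet, and the distance between the points of a list is not its median interaction, which is taken over single genes.

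Of the 39 genes called on at least 1 diet, 10 had an interaction at an unadjusted p over 0.1, and 4 of them, chosen after their values were seen, are given with their intervals. Slc27a1 (a fatty acid transporter) was called on both diets with an interaction of 0.15 (95% interval -0.19 to 0.50), and Gpat3 (an acyltransferase of triglyceride synthesis) with -0.07 (-0.41 to 0.27). F11, a clotting factor of the liver, was also called on both, with 0.11 (-0.34 to 0.56), and G0s2, an inhibitor of fat breakdown, on the low-fat diet only, with 0.14 (-0.32 to 0.59). In the refits without 1 array, Slc27a1 kept its call in 12 of 12 on the low-fat and 11 on the high-fat diet, Gpat3 in 8 and 7, F11 in 4 and 4, and G0s2 its low-fat call in 1. These 4 intervals exclude a 2-fold difference between the diets and allow smaller ones. Among the 10 genes, the intervals of Acot2 (-0.22 to 1.31) and Cyp2c70 (-1.19 to 0.49) did not exclude it. Plin4, a coat protein of lipid droplets, had 7.11, 7.05 and 7.10 in low-fat control, 5.75, 6.22 and 5.67 in low-fat MSX, 8.21, 8.47 and 7.80 in high-fat control and 6.00, 6.02 and 6.15 in high-fat MSX. Its levels were higher in high-fat than in low-fat control, and the MSX arrays of both diets overlapped. It fell by 1.20 on the low-fat diet, a call kept in 7 of the 12 refits, and by 2.10 on the high-fat diet, kept in all 12, with an interaction of -0.89 (SE 0.25, adjusted p = 0.811). Cd36, a fatty acid receptor, had -0.75 (-1.54 to 0.05). Fat cells also express Plin4 and Cd36. The adipocyte hormone Adipoq lay at 2.23 to 2.93 in all 12 arrays, below the all-gene median level, and of 12 measured adipocyte markers 5 lay above it. Their mean level was 6.23 to 6.32 in low-fat control, 6.10 to 6.20 in low-fat MSX, 6.26 to 6.82 in high-fat control and 6.12 to 6.20 in high-fat MSX. Of the 12 markers, 6 had an interaction above 0 and 6 below. The 1 marker lower at an unadjusted p under 0.05 was Fabp4, with -0.79 (SE 0.26, adjusted p = 0.946). Its extract effects were -0.50 on the high-fat and 0.29 on the low-fat diet. Cidea, another marker, lay at 7.86 in high-fat control replicate 1 and at 4.07 to 4.58 in the other arrays. High-fat control replicate 1 was left out in 1 refit, and the interaction was then -0.87 for Plin4 and -0.72 for Cd36. The part of fat cell RNA in these values was not tested.

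Lpin1, a phosphatase of triglyceride synthesis and a regulator of transcription, had 8.83, 7.81 and 8.60 in low-fat control and 9.43, 10.53 and 10.87 in low-fat MSX, and 8.55, 9.50 and 8.86 in high-fat control and 8.55, 8.47 and 9.19 in high-fat MSX. The low-fat groups were apart and the high-fat groups overlapped, and its interaction was -2.09 (SE 0.52, adjusted p = 0.74). Over 28 measured genes that make triglyceride or coat lipid droplets, the median interaction was -0.02, and Lpin1 and Plin4 were the 2 at an unadjusted p under 0.05.

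In male-biased liver genes, unlike the synthesis, cholesterol and oxidation lists, the median effect was larger on the high-fat diet. Of 27 measured genes out of 30 listed, 22 had an interaction above 0 (51% of all genes), 4 of them at an unadjusted p under 0.05 (2.67%), with medians of 0.27 for the interaction, 0.82 for the extract on the high-fat diet and 0.42 on the low-fat diet. MSX arrays lay wholly above controls in 18 of 27 genes on the high-fat diet (6.7% of all genes) and in 5 on the low-fat diet (7.13%). High-fat control had the lowest group mean in 22 of the 27 (25.8% of all genes). Without high-fat control replicate 1 the median interaction was 0.13 and the count 2, and without low-fat MSX replicate 3 the count was 7.

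Hsd3b5, a male-specific steroid dehydrogenase, had 8.98, 8.94 and 8.71 in low-fat control, 9.96, 9.57 and 10.06 in low-fat MSX, 7.69, 7.78 and 8.34 in high-fat control and 9.80, 10.66 and 9.96 in high-fat MSX. Groups were apart on both diets, and with the extract the levels of both diets overlapped. It rose by 2.21 on the high-fat diet (adjusted p = 0.00239, kept in all 12 refits), the low-fat effect was 0.98 (adjusted p = 0.164), and the interaction 1.23 (SE 0.32, 95% interval 0.54 to 1.92, adjusted p = 0.753).

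Cyp4a12b, a male-biased fatty acid hydroxylase, had 10.12, 10.49 and 9.71 in low-fat control, 10.01, 9.57 and 9.64 in low-fat MSX, 8.94, 9.26 and 8.52 in high-fat control and 9.70, 10.22 and 9.98 in high-fat MSX. High-fat control stood below the other 3 groups. The extract effects were 1.06 on the high-fat and -0.37 on the low-fat diet, with an interaction of 1.43 (SE 0.32, adjusted p = 0.664). Cyp4a12a (0.65) and Susd4 (0.62) were the other 2 members at an unadjusted p under 0.05.

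Among 28 female-biased genes the median interaction was -0.17, with 3 lower (2.43% of all genes) and 1 higher, Cyp4a14 (2.67%), at an unadjusted p under 0.05. MSX arrays lay wholly below controls in 11 on the high-fat diet (5.51% of all genes) and in 2 on the low-fat diet, a share near the 6.73% of all genes. Cyp2b13, a female-specific cytochrome, had 3.61, 3.68 and 3.17 in low-fat control, 3.14, 3.72 and 3.60 in low-fat MSX, 6.68, 4.85 and 6.56 in high-fat control and 4.61, 3.57 and 3.34 in high-fat MSX. All 3 high-fat control arrays lay above every other array. The low-fat arrays, at 3.14 to 3.72, lay below the all-gene median level and could not be told from background. A fall with MSX on the low-fat diet might therefore not show. The interaction was -2.19 (SE 0.60, adjusted p = 0.802). Slc22a27, a female-biased organic anion transporter, gave -2.03 in the same pattern, at low levels of 2.26 to 2.75 in low-fat control. Cyp2c39, a cytochrome of the xenobiotic list, had 5.53, 5.38 and 5.18 in low-fat control, 5.62, 5.52 and 5.63 in low-fat MSX, 7.04, 6.70 and 6.39 in high-fat control and 6.07, 4.84 and 4.97 in high-fat MSX. High-fat control stood above the other groups, and the interaction was -1.65 (SE 0.37, adjusted p = 0.664). Without high-fat MSX replicate 1 it was -2.04 with an adjusted p of 0.04, the 1 call for the interaction in any refit without an array.

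In stellate cell and matrix genes, 23 of 24 measured genes (of 25 listed) had an interaction below 0 (49% of all genes), 7 of them at an unadjusted p under 0.05 (2.43%) and none above 0 at that level. The medians were -0.45 for the interaction, -0.32 for the extract on the high-fat diet and 0.18 on the low-fat diet. MSX arrays lay wholly below controls in 3 of 24 genes on the high-fat diet (5.51% of all genes). On the low-fat diet they lay wholly above controls in 4 (7.13%). High-fat control had the highest group mean in 17 of the 24 (24.3% of all genes), and the mean level of the list was 6.38 to 7.09 in that group, 6.18 to 6.39 in low-fat control, 6.34 to 6.62 in low-fat MSX and 6.21 to 6.51 in high-fat MSX. High-fat control replicate 1 was the highest array, and without it the median interaction was -0.28, while without high-fat control replicate 2 the count of 7 became 11. In whole liver, fewer cells of a type and less RNA per cell cannot be told apart.

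Sparc, a matrix protein, had 6.54, 6.71 and 7.02 in low-fat control, 7.31, 7.33 and 7.19 in low-fat MSX, 7.92, 7.33 and 7.73 in high-fat control and 7.11, 7.20 and 6.73 in high-fat MSX. MSX arrays lay above all controls on the low-fat diet and below all controls on the high-fat diet, with effects of 0.52 and -0.65 and an interaction of -1.17 (SE 0.25, adjusted p = 0.664). Col3a1, the chain of type III collagen, had 6.07, 6.13 and 6.70 in low-fat control, 6.78, 6.66 and 7.17 in low-fat MSX, 8.16, 6.54 and 7.41 in high-fat control and 6.60, 6.40 and 6.21 in high-fat MSX. Its groups overlapped on both diets, and the interaction was -1.53 (SE 0.44, adjusted p = 0.905). Col1a2, a chain of type I collagen, had -1.17, and Lrat, the retinol-storing enzyme of stellate cells, -0.76.

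Macrophage and Kupffer cell markers had a median interaction of -0.37, with 24 of 25 measured genes below 0 (49% of all genes) and none at an unadjusted p under 0.05. Their mean level ran from 6.30 to 7.36 across the high-fat control arrays, a wider range than the 6.37 to 6.85 of low-fat control. Without high-fat control replicate 1 the median was -0.13, and without high-fat control replicate 3 it was -0.61 with 13 genes at that level, so that this list rests on single arrays of that group. The part of matrix and macrophage RNA in the other results was not tested.

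**Figure D5:**
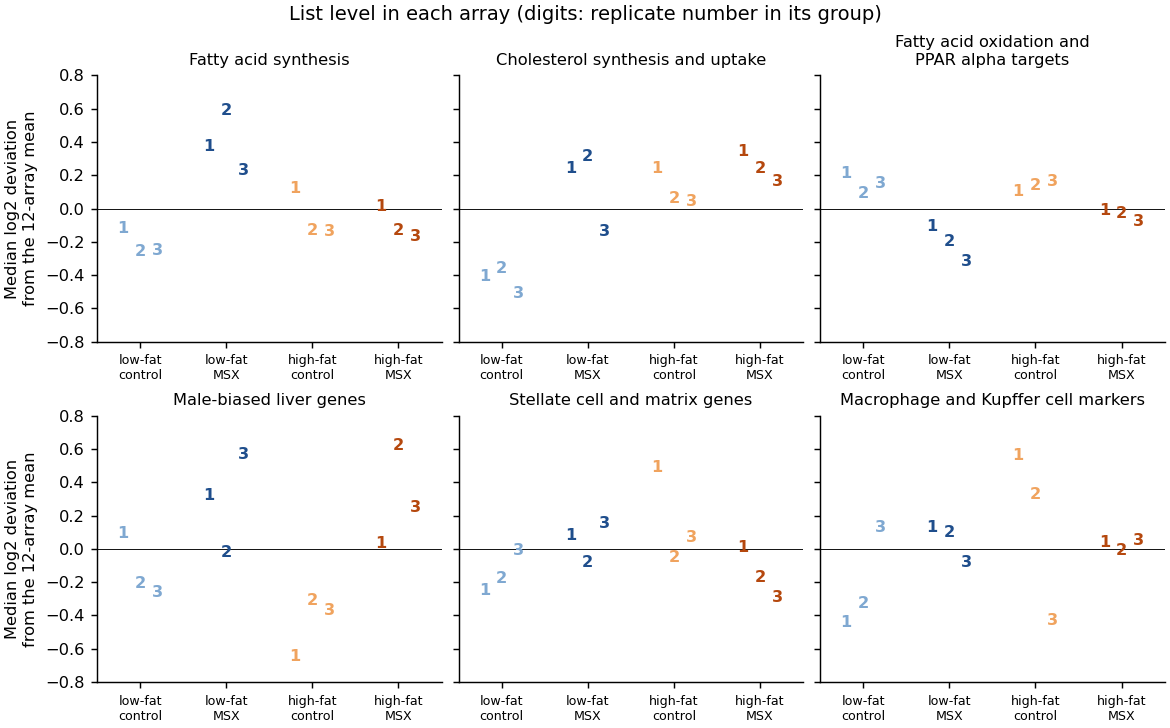
Median deviation (log2) of the genes of a list from their 12-array means, drawn for each array as its replicate number, for 6 lists. Fatty acid synthesis lies at -0.26 to -0.12 in low-fat control and at 0.23 to 0.59 in low-fat MSX, and the macrophage list runs from -0.43 to 0.56 within high-fat control.

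The genes of lowest interaction p were Csta1 and Igfbp2. Csta1, a stefin that inhibits cysteine proteases, had 2.99, 3.13 and 3.15 in low-fat control, 2.34, 1.77 and 1.88 in low-fat MSX, 1.72, 2.13 and 2.01 in high-fat control and 3.00, 2.45 and 2.05 in high-fat MSX, all below the all-gene median level. Its interaction was 1.65 (SE 0.30, 95% interval 0.99 to 2.30, adjusted p = 0.664). Igfbp2, a secreted binding protein of insulin-like growth factors, had 10.91, 11.12 and 11.06 in low-fat control, 10.18, 10.15 and 10.73 in low-fat MSX, 9.74, 9.66 and 9.81 in high-fat control and 10.13, 10.16 and 10.15 in high-fat MSX. MSX arrays lay below all controls on the low-fat diet and above all controls on the high-fat diet and all 6 MSX arrays lay between the levels of the low-fat and the high-fat controls. The effects were -0.68 and 0.41, and the interaction 1.09 (SE 0.21, 95% interval 0.64 to 1.53, adjusted p = 0.664).

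Gstm3, a glutathione transferase, had 4.54, 5.07 and 5.69 in low-fat control, 6.51, 7.07 and 6.86 in low-fat MSX, 7.16, 5.47 and 6.79 in high-fat control and 5.92, 5.74 and 5.82 in high-fat MSX. The low-fat groups were apart and the high-fat groups overlapped, and the interaction was -2.36 (SE 0.51, adjusted p = 0.664). Fabp5, a fatty acid binding protein, had 5.53, 5.84 and 5.72 in low-fat control, 6.90, 7.03 and 6.87 in low-fat MSX, 5.86, 5.96 and 5.54 in high-fat control and 5.86, 6.27 and 6.19 in high-fat MSX. It rose by 1.24 on the low-fat diet (adjusted p = 0.0049, kept in all 12 refits), the effect on the high-fat diet was 0.32, and the interaction was -0.92 (SE 0.21). Its other probe sets gave -0.54, -2.08 and -2.07. Agxt, an enzyme that clears glyoxylate, had 10.11, 10.06 and 10.39 in low-fat control, 9.85, 9.77 and 9.39 in low-fat MSX, 9.57, 9.51 and 9.58 in high-fat control and 9.99, 9.81 and 9.87 in high-fat MSX. Its MSX arrays too lay below all controls on the low-fat diet and above all controls on the high-fat diet, and the interaction was 0.85 (SE 0.19, adjusted p = 0.664).

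In other lists, 5 of 20 genes of glucose and glycogen metabolism were lower (2.43% of all genes) and 1 higher (2.67%) at an unadjusted p under 0.05, with a median interaction of -0.15. Pklr, given above, is also in that list. Pfkfb3, which makes an activator of glycolysis, had -1.38, Tkfc, which handles fructose-derived trioses, -0.61, and Gys2, liver glycogen synthase, 0.38. Of 23 acute phase genes 21 had an interaction below 0 (49% of all genes) and 3 were lower at that level (2.43%), Steap4 (-1.0), Orm3 (-1.50) and Apcs (-1.07). Without single arrays the list median ran from -0.383 to -0.151. In the same refits Steap4 ran from -1.23 to -0.75, Orm3 from -1.97 to -1.01 and Apcs from -1.59 to -0.71. Of 22 cell cycle genes 5 were lower (2.43% of all genes), among them Ccnb2, cyclin B2, with -0.67 (SE 0.17, adjusted p = 0.753). The 32 genes of the respiratory chain had a median of -0.01 with none at that level in either direction, and the 18 hepatocyte markers a median of 0.04.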

How the data were processed

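Liver RNA of 12 mouse samples was measured on Affymetrix arrays, 1 per sample. The authors deposited log2 probe set levels. The submitters' processing notes name the Transcriptome Analysis Console. How it normalized and summarized the probes, and which version was run, is not given in the sources used here. They were used as deposited. Of 41345 probe sets, 25335 were listed in the platform annotation, 23521 with 1 symbol, 1814 with several and 16010 unlisted. Probe sets of highest mean gave 22180 genes, 1082 of which had several probe sets.

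With limma 3.58.1 in R 4.3.3, 4 group means were fitted to all 12 arrays (8 residual and 5.18 prior degrees of freedom). The interaction and the extract effect on each diet were tested as contrasts (two-sided), with Benjamini-Hochberg adjustment over all genes and a threshold of 0.05. The fit was tested on simulated data. The labels call arrays biological replicates without naming separate animals, so p-values measure the spread between these arrays, whose number limits the precision; an exact permutation of 3 against 3 cannot give a p below 0.1. The labels give no batch.

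The 34 gene lists were written from general knowledge. Named genes were the 10 of lowest interaction p per direction without provisional names, the 2 of lowest p per list and a panel of 40 genes, of which 38 were measured; not all are printed, and further list members at an unadjusted p under 0.05 were named after their values were seen, as were Mvd, Ppara, Slc27a1, Gpat3, F11, G0s2, Pmvk and Pgd where outside the rule. The comparison, lists and panel were chosen with earlier results of these data known, and panel genes were partly chosen for an effect on 1 diet.

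Alternatives were leaving out each array, a replicate block, quantile normalization between arrays, centring on array medians, leaving out dim genes, the mean of a gene's probe sets, eBayes with trend and robust, array weights, and every probe set. Counts of calls on single diets and of list members under them were added after seeing the data. Replicate numbers were not used as pairs outside the replicate block. Deviations from the group means correlated at -0.13 to 0.11 over 18 same-numbered pairs, 2 of them over 0.1. Over 36 pairs of different number they correlated at -0.09 to 0.16. Same-numbered arrays of high-fat control and high-fat MSX had 0.11, 0.08 and 0.11, and those of low-fat control and low-fat MSX -0.02, -0.05 and -0.06. Whether the numbers pair arrays was not tested further. Promoters came from RefSeq (GRCm38.p6).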

Additional observations from a re-analysis of the deposited data

Results flagged for a closer look

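In 91 of 22180 genes (0.41%), the 3 MSX arrays lay wholly on 1 side of the controls on the low-fat diet and wholly on the other side on the high-fat diet, 53 of them higher on the high-fat and lower on the low-fat diet and 38 the reverse. None of these differences passed the test for the interaction after adjustment. Over all genes, MSX arrays lay wholly above controls in 7.13% on the low-fat and in 6.7% on the high-fat diet. They lay wholly below controls in 6.73% and 5.51%. With 3 arrays per group such separation also arises without an effect, and no expected share of the pattern was computed. Nothing is read from the count of 91. Of the 102 genes taken by the rule for named genes, 9 showed this pattern. Beside the panel, that rule takes genes of low interaction p, which favours opposite and separate groups by construction. The 9 are therefore a description. Higher with MSX on the high-fat and lower on the low-fat diet were Igfbp2 (interaction 1.09), Agxt (0.85), Olfr1513, an olfactory receptor gene (0.92), and Srsf12, a splicing factor of the SR family (0.89). Olfr1513 lay at log2 levels of 1.32 to 2.38 and Srsf12 at 3.34 to 4.30, below the all-gene median of 5.11, and neither could be told from background. The reverse held for Acacb (-1.30), Sparc (-1.17), Mpzl1, a cell surface glycoprotein (-0.87), Tead1, a partner of YAP in transcription (-0.83), and Mcm6, a subunit of the replicative helicase (-0.47). Their adjusted p ran from 0.664 upwards.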

How the results depend on the processing

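Calls for the interaction after adjustment stayed at 0 in the 8 other settings, with the lowest adjusted p between 0.225 (eBayes with trend and robust) and 0.999 (every probe set), and numbered 0 to 1 when arrays were left out. Genes at an unadjusted p under 0.05 numbered 961 to 1293 without single arrays, 655 of 12867 when genes under a mean level of 4.7 were left out, and 1820 over every probe set. Without single arrays the calls numbered 2 to 10 on the high-fat and 6 to 28 on the low-fat diet. They were 14 and 67 without dim genes, 28 and 77 with trend and robust eBayes, and 3 and 10 over every probe set, and 23 on the low-fat diet with the mean of all probe sets. The causes were not tested. With the replicate number as a block, the calls were 5 and 20. That setting had 0 calls for the interaction (lowest adjusted p 0.672, limma) and 1 macrophage marker lower. The labels do not say that the numbers pair the arrays.

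Median interactions ran, without single arrays, from -0.616 to -0.417 (fatty acid synthesis), -0.738 to -0.412 (cholesterol), 0.165 to 0.295 (fatty acid oxidation), 0.131 to 0.414 (male-biased), -0.613 to -0.279 (stellate) and -0.606 to -0.13 (macrophage). Their counts at an unadjusted p under 0.05 ran from 8 to 12 (fatty acid synthesis, lower), 6 to 12 (cholesterol, lower), 3 to 7 (fatty acid oxidation, higher), 2 to 7 (male-biased, higher), 5 to 11 (stellate, lower) and 0 to 13 (macrophage, lower). Array weights gave 1 macrophage marker lower. Of 62 genes tried in 20 settings, 3 changed sign, all with an interaction near 0. Ppara, at -0.11 to 0.09 without single arrays, took -0.01 with quantile normalization, -0.03 with array weights, -0.02 without low-fat control replicate 3, -0.11 without low-fat MSX replicate 3, and -0.01 without high-fat control replicate 1 or high-fat MSX replicate 1. F11 ranged from -0.03 (without low-fat MSX replicate 3) to 0.21, and G0s2 from 0 (without low-fat MSX replicate 1) to 0.27. The precision is limited by 3 arrays per group and by the lack of a stated detection call, so that low levels such as those of Csta1 could not be told from background.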
